A study of Homo sapiens with 2 samples.

Results

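The 8 genes CRIM1, ATXN1, TRIO, RAPGEF2, NAV3, ZFPM2, MAML2 and AKAP2 are long human genes picked because a METTL3 HiChIP library of control fibroblasts listed many of its chromatin contacts there. Each gene was represented by 1 window in the hg19 build, 110 to 490 kb wide, and a contact was counted when at least 1 of its ends lay in the window. The windows were CRIM1 at chr2:36580001-36780000 (plus strand), ATXN1 at chr6:16290001-16770000 (minus strand), TRIO at chr5:14140001-14510000 (plus strand), RAPGEF2 at chr4:160180001-160290000 (plus strand). The other 4 were NAV3 at chr12:78220001-78610000 (plus strand), ZFPM2 at chr8:106330001-106820000 (plus strand), MAML2 at chr11:95710001-96080000 (minus strand) and AKAP2 at chr9:112540001-112940000 (plus strand). No annotation of exons or introns on hg19 was used here. The windows held 291 of the 12221 contacts listed in the control library and 568 of the 150390 contacts listed in the senescent library. The genes were chosen for their contact numbers in these same libraries, so their numbers are given as a description and were not tested.

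HiChIP joins DNA ends that lie close together in fixed nuclei and enriches, with an antibody, the joined fragments that a protein occupies. The protein here was METTL3, the catalytic subunit of the complex that writes N6-methyladenosine on RNA. Both libraries came from IMR90, a line of human embryonic lung fibroblasts with a limited lifespan in culture, labelled wild type and grown at low oxygen. In the senescent group, arrest followed the switching-on of a chimeric protein of estrogen receptor and oncogenic H-RASG12V, and the control group had no treatment named. The labels do not say whether the control cells carried the fusion without inducer. Oncogenic RAS first drives fibroblasts to divide and then arrests them for good, with a change in nuclear architecture and a secretory programme. Each group had 1 library. The differences between them therefore have no replicate check, and no p-value is given. Intervals are at the 95% level and describe counting error alone. A contact is counted in paired-end tags (PETs), the sequenced read pairs that join its 2 ends, called anchors. The tables held 14373 control and 184165 senescent PETs in all, and a PET number cannot tell a contact in few cells from a weak contact in many.

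The genes are long but unlike in function. ATXN1, ZFPM2 and MAML2 encode transcriptional co-regulators. TRIO and RAPGEF2 encode guanine nucleotide exchange factors, which switch on small GTPases. AKAP2 encodes an anchor for protein kinase A, NAV3 a protein of growing microtubule ends, and CRIM1 a membrane protein with cysteine-rich repeats that binds bone morphogenetic proteins. Long genes of this kind carry most of their sequence in introns, where enhancers of the gene itself often lie.

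The 8 genes together took a larger share of the control table than of the senescent one, but their PET numbers as deposited divided them into unlike groups. The control library listed 29 PETs at RAPGEF2, 70 at ZFPM2 and 26 at NAV3, and the senescent library listed 3, 26 and 12 there. Those 3 genes thus had fewer PETs in the senescent table although that table was larger. More control than senescent PETs were listed in 2.65% of 4156 autosomal windows of 380 kb with at least 10 PETs over both libraries, and the genes were picked on this contrast. CRIM1 had nearly equal numbers, with 51 control and 53 senescent PETs. At the other 4 genes the senescent table held more: 66 control and 114 senescent PETs at MAML2, 47 and 139 at ATXN1, 56 and 202 at TRIO, and 37 and 156 at AKAP2. "Contacted mainly in control" therefore holds for these 4 genes and CRIM1 only per deposited PET. Over all 8 genes the windows held 382 control PETs, 2.66% of that table, and 705 senescent PETs, 0.383% of that table.

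**Figure D1:**
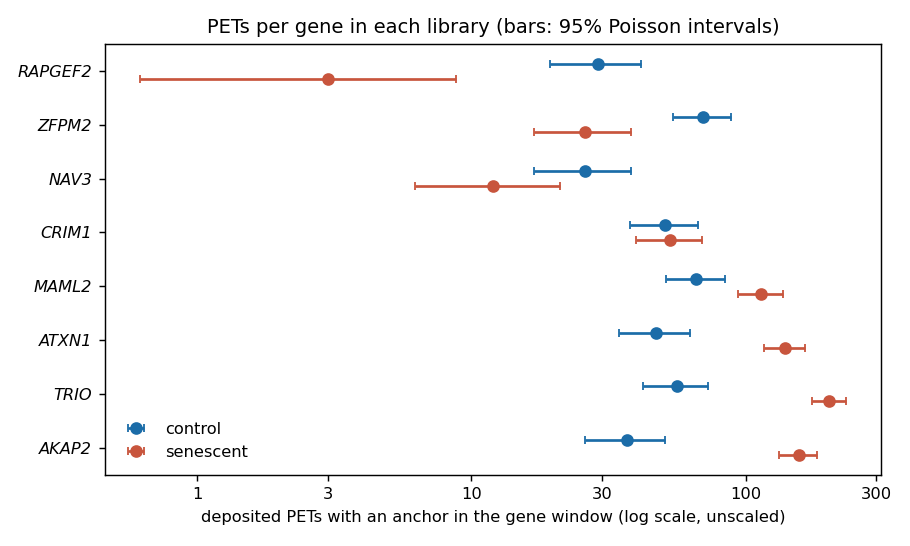
PETs with at least 1 anchor in each gene window, on a log axis without scaling, for the control library (blue) and the senescent library (red), with 95% Poisson intervals. RAPGEF2 (29 and 3 PETs) and AKAP2 (37 and 156 PETs) stand at opposite ends of the order.

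Per deposited PET, the control library exceeded the senescent library 124-fold at RAPGEF2 (38.4 to 635, exact conditional binomial interval), 34.5-fold at ZFPM2 (21.7 to 56.4) and 27.8-fold at NAV3 (13.5 to 60.4). The intervals of these neighbours overlapped, so their order is not resolved. The ratio was 12.3 at CRIM1 (8.23 to 18.5) and 7.42 at MAML2 (5.39 to 10.1). It was 4.33 at ATXN1 (3.04 to 6.07), 3.55 at TRIO (2.59 to 4.80) and 3.04 at AKAP2 (2.06 to 4.37), and these last 3 intervals overlapped one another. Scaled to the PETs of the same chromosome, AKAP2 (4.04) stood above TRIO (2.78) and ATXN1 (2.36). At least a 4-fold ratio was thus reached by 6 of the 8 genes. Of the 4156 windows, 553 (13.3%) reached it. At least an 8-fold ratio was reached by 4 of the 8 genes and by 5.56% of these windows. ATXN1 was below 4-fold when scaled by chromosome (2.36), when contacts were counted once (3.66) and at a deposited value of at most 0.05 (3.57), and CRIM1 was below 8-fold when scaled by chromosome (7.81). The choice of genes used this contrast, and nothing is read from these shares. Without scaling, the control library exceeded the senescent one 9.67-fold at RAPGEF2 (3.00 to 49.6), 2.69-fold at ZFPM2 (1.69 to 4.40) and 2.17-fold at NAV3 (1.06 to 4.71). Without scaling the senescent library exceeded the control one 4.22-fold at AKAP2 (2.93 to 6.21), 3.61-fold at TRIO (2.67 to 4.94), 2.96-fold at ATXN1 (2.11 to 4.21) and 1.73-fold at MAML2 (1.26 to 2.38), and at CRIM1 the unscaled interval held 1.

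**Figure D2:**
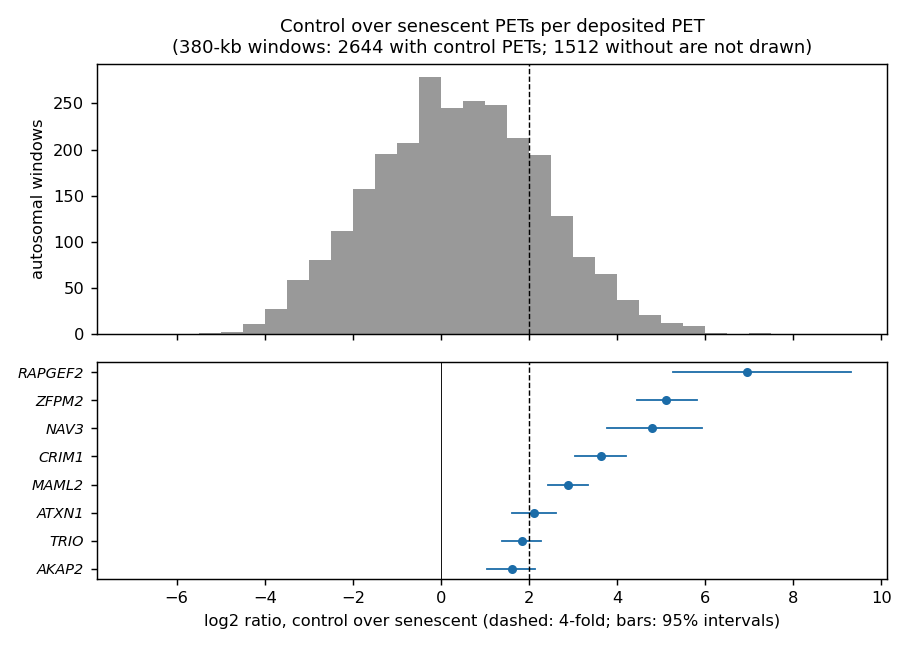
The upper panel shows the log2 ratio of control to senescent PETs per deposited PET over 380-kb autosomal windows with at least 10 PETs, for the 2644 windows with control PETs; the lower panel shows the same ratio for the 8 genes with 95% intervals. The dashed line marks a 4-fold ratio, which AKAP2 (3.04) and TRIO (3.55) do not reach.

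The genes also took a large part of their own chromosomes in the control library. MAML2 held 9.13% of the control PETs of chromosome 11 and 1.19% of the senescent ones. ZFPM2 held 8.64% and 0.334% of those of chromosome 8, and AKAP2 7.92% and 1.96% of those of chromosome 9. For the other 5 genes the control share ran from 2.92% (RAPGEF2, chromosome 4) to 5.69% (TRIO, chromosome 5), and the senescent share from 0.0592% (RAPGEF2) to 2.05% (TRIO). Set per 100 kb of window, control PETs ran from 6.67 at NAV3 to 26.4 at RAPGEF2, while senescent PETs ran from 2.73 at RAPGEF2 to 54.6 at TRIO. A 380-kb autosomal window listed in either table had a median of 1 control PET and 24 senescent PETs.

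Among the co-regulators, ATXN1, whose expanded polyglutamine form causes spinocerebellar ataxia, had its control contacts packed at the start of the gene. Each window was divided into 10 equal bins, numbered from the side where transcription of the gene begins. Bin 1 of ATXN1 held 48 of 84 control PET ends (57.1%) and 73 of 211 senescent PET ends (34.6%). At the opposite edge, bin 10 held 6 control and 41 senescent PET ends. The strongest control contact of the gene joined chr6:16736005-16739494 and chr6:16740102-16746332 with 4 PETs, both near the start. Of the 2 senescent contacts with 4 PETs, the one with the smaller deposited value joined chr6:16316234-16324968 and chr6:16330724-16341201 near the far end. The senescent anchor with the most PETs was that same far-end site, chr6:16330724-16341201, with 25 PETs against 6 in the control library. Single PETs joined bins 1 and 2 with bins 9 and 10, over 386 to 426 kb in 4 control contacts and over 338 to 448 kb in 10 senescent contacts. The senescent contacts of ATXN1 also left the gene more often: 51.8% of PETs (43.2 to 60.3%, exact Clopper-Pearson interval) had both anchors in the window. The share was 78.7% (64.3 to 89.3%) in the control library. The PETs that left past the start of the gene numbered 9 in the control and 47 in the senescent library. Outside the gene, 4 sites had 3 senescent PETs each, 66.2 to 275 kb before the start, and no outside site had 3 control PETs. The median span was 80.0 kb (29.97 to 308 kb, binomial order-statistic interval) in the control and 216 kb (136 to 354 kb) in the senescent library, and these intervals overlapped.

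MAML2 encodes a mastermind-like protein that completes the Notch transcription complex. The outermost start of the gene held few of its control contacts and many of its senescent ones. Bin 1 held 9 of 116 control PET ends (7.76%) and 42 of 201 senescent PET ends (20.9%), while bins 2 to 4 held 22, 30 and 24 control and 26, 30 and 27 senescent PET ends. The senescent anchor with the most PETs was the outermost one, chr11:96071441-96077641, with 23 PETs and 16 partners, and no control anchor overlapped it. It took part in the strongest senescent contact, with chr11:96061036-96066887, of 4 PETs over 10.6 kb. In the control library the busiest anchor was chr11:95967596-95973128, with 13 PETs and 9 partners, where the senescent library listed 7 PETs. The strongest control contacts were 2 with 3 PETs, and the one with the smaller deposited value joined chr11:95944759-95949394 and chr11:95975244-95978089. Of its 24 control anchors, 22 overlapped a senescent anchor. Of its 56 control contacts, 10 (17.9%) had a senescent contact joining the same sites, against 16.6% of all control contacts. The share of PETs with both anchors in the gene was 75.8% (63.6 to 85.5%) in the control and 76.3% (67.4 to 83.8%) in the senescent library.

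ZFPM2 (also called FOG2) encodes a zinc finger cofactor of GATA factors that is needed for heart, diaphragm and lung development in mice. It had the most control contacts of the 8 genes, 58 with 70 PETs, spread over 29 anchors. The senescent library listed 26 contacts at 15 anchors, and each rested on 1 PET. The difference was widest in the first part of the gene: bins 2 and 3 held 18 and 20 control PET ends and 1 and 0 senescent ones. Bin 7 was the fullest in both libraries, with 31 control and 18 senescent PET ends. Its strongest control contact, with 4 PETs, joined chr8:106662618-106665813 and chr8:106667069-106675607 in that bin. Of the control anchors 12 of 29 overlapped a senescent anchor, and of the senescent anchors 12 of 15 overlapped a control one. Outside ZFPM2, 3 sites had 3 control PETs each, and no site had 3 senescent PETs. All 3 lay before the start side of the window, at 340, 244 and only 0.25 kb from its edge. Most senescent sites at ZFPM2 were thus also control sites, while most control sites had no senescent counterpart.

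**Figure D3:**
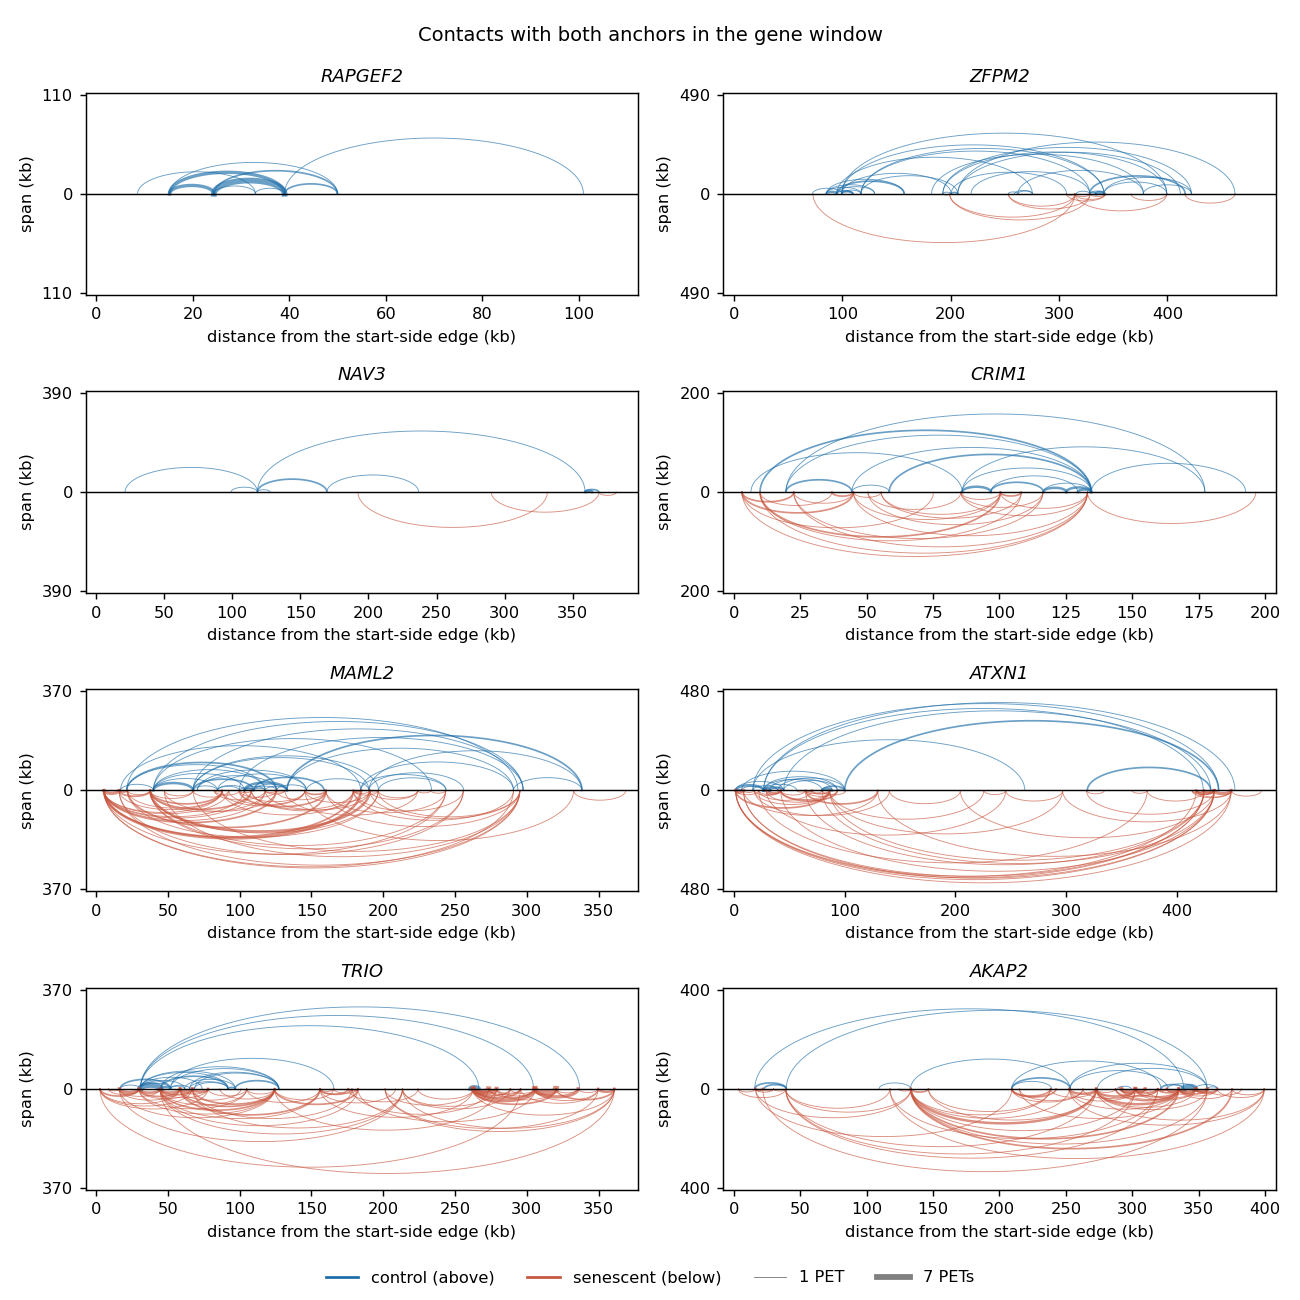
Contacts with both anchors in the gene window, drawn as arcs over the distance from the start-side edge of the window in kb, control above and senescent below, with arc height proportional to span and line width to PETs. RAPGEF2 has 24 control and 0 senescent PETs of this kind, TRIO has 42 and 132, and the ATXN1 arcs that join bins 1 or 2 with bins 9 or 10 are single PETs.

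The exchange factors differed from each other. TRIO acts in cell migration. Its control contacts lay in the first part of the gene, with 24, 34 and 14 of 98 PET ends in bins 1 to 3. Only 16.3% of control PET ends lay in the end-side bins 6 to 10, against 50.6% of the 334 senescent PET ends. The strongest control contact of TRIO joined chr5:14166508-14175035 and chr5:14182448-14187375 with 7 PETs over 14.1 kb. The strongest senescent contact also had 7 PETs over 14.7 kb but lay elsewhere, between chr5:14438110-14453325 and chr5:14454918-14465978. The first anchor of the control contact was the busiest control anchor, with 19 PETs, and the senescent anchors overlapping it also had 19. The busiest senescent anchor, chr5:14394681-14410663 in bin 8, had 40 PETs and 20 partners, and control anchors overlapping it had 14 PETs. Bin 8 as a whole held 14 control and 78 senescent PET ends. Contacts out of TRIO also differed in direction. In the control library 14 PETs left past the start and 0 past the end, and in the senescent library 33 and 37 did. The outside site with the most senescent PETs, 9 at chr5:14049546-14056851, lay 83.1 kb before the window, and that with the most control PETs, 4 at chr5:14034105-14040269, lay 99.7 kb before it. Of the senescent TRIO contacts, 23.1% had at least 2 PETs, close to the 20.5% of the control contacts.

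RAPGEF2 encodes an exchange factor for Rap GTPases. Most of its control PETs, 24 of 29, had both anchors in the window. They lay mainly between chr4:160191769-160198632 and chr4:160229074-160230884, in bins 2 to 5, which held 10, 18, 17 and 6 of 53 control PET ends and no senescent ones. The strongest contact joined chr4:160201867-160206923 and chr4:160216083-160221978 with 7 PETs over 14.6 kb, and the second of these anchors had 17 PETs and 7 partners. No senescent anchor overlapped any of the first 6 of the 7 control anchors. The 7th, chr4:160278424-160283434, had the same coordinates in both libraries, with 1 control and 3 senescent PETs. Out of the window led 5 control PETs, all past the start side over 499 to 1081 kb, and all 3 senescent PETs, over 84.4 to 536 kb. Of contacts that did not touch the window, the control library listed no PET in the 110 kb past its end side and the senescent library 11. With the window widened by 50 kb on each side, RAPGEF2 had 29 control and 13 senescent PETs, a ratio of 28.6 (14.4 to 59.9) in place of 124. The window is 42.8% as long as the RefSeq gene on GRCh38, so it holds part of the gene and its start-side edge need not be the gene's start.

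AKAP2 shares a RefSeq gene with PALM2, named PALM2AKAP2. The window is 75.2% as long as that gene, and its start-side edge need not be a start of AKAP2. RefSeq promoters of the gene lie at chr9:109640537-109640836, chr9:109779948-109780247 and chr9:110125251-110125550 on GRCh38. They were not matched to the hg19 window, so a start may also lie inside it, toward its end side. The contacts of AKAP2 lay toward the end side of the window in both libraries. Bins 6 to 10 held 73.8% of 65 control and 78.3% of 263 senescent PET ends, which need not be far from a start. In bin 9 there were 29 control and 66 senescent PET ends, whereas in bin 8 there were 2 and 62. A shared site lies at the boundary of these bins. Its senescent anchor, chr9:112855381-112863017 with 14 PETs, counted in bin 8, and its control anchor, chr9:112860215-112863017 with 3, in bin 9. The strongest control contact, chr9:112877058-112880346 with chr9:112884923-112889513, had 7 PETs over 8.52 kb. The busiest senescent anchor, chr9:112869715-112880346, covered its first site and had 27 PETs and 15 partners, against 10 PETs at that site in the control library. The strongest senescent contact, with 5 PETs, joined chr9:112830076-112833394 and chr9:112837956-112846574 in bin 8. The senescent anchor with the most partners, chr9:112934305-112944457 at the end of the window, had 17 and no control counterpart. All but 1 of the 17 control anchors overlapped a senescent anchor.

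NAV3, a neuron navigator gene, had the fewest control PETs per length and the longest median spans of the 8 genes. Its control contacts centred on 1 wide anchor, chr12:78332197-78344663, with 11 PETs and 10 partners, and on a group at the end of the window, where chr12:78577541-78580592 and chr12:78582474-78586427 were joined by 3 PETs. No senescent anchor overlapped the first of these sites, and each of the 12 senescent contacts rested on 1 PET. The median span was 328 kb (67.4 to 842 kb) in the control and 821 kb (79.05 to 1538 kb) in the senescent library. Both intervals were wide and overlapped. Only 12 of 26 control PETs and 3 of 12 senescent PETs stayed in the window. The window is 60.8% as long as the RefSeq gene on GRCh38.

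CRIM1, with nearly equal PET numbers, had them at different places. Bin 7 held 28 of 81 control and 7 of 83 senescent PET ends, and bin 5 held 21 and 4. Bin 6 held 6 control and 24 senescent PET ends, and bins 1 and 2 held 11 and 0 control against 17 and 10 senescent ones. A boundary between bins 5 and 6 falls at one wide site that both libraries listed, chr2:36671849-36681593 in the control library with 13 PETs and chr2:36675445-36685229 in the senescent library with 14, so the values of these 2 bins partly trade places. Bins 1 and 2 also part at a shared site. Its control anchor, chr2:36597158-36601964 with 4 PETs, counted in bin 1. The overlapping senescent anchor, chr2:36599239-36605805 with 7 PETs, counted in bin 2. The anchor with the most control PETs was chr2:36711818-36717358, with 16 PETs and 10 partners, and the overlapping senescent anchor had 7. At the start of the gene the senescent library listed chr2:36578897-36587130 with 8 PETs, and the overlapping control anchor, chr2:36585282-36587487, had 3. No single contact stood out, with at most 3 control and 2 senescent PETs, in 4 and 6 contacts. Contacts out of the gene on the end side reached chr2:36794856-36800940 with 5 control PETs and chr2:36897159-36899490 with 6 senescent PETs. Both libraries reached 1 further site, with 3 PETs each, at chr2:36922362-36924583 in the control and chr2:36922207-36925862 in the senescent library.

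**Figure D4:**
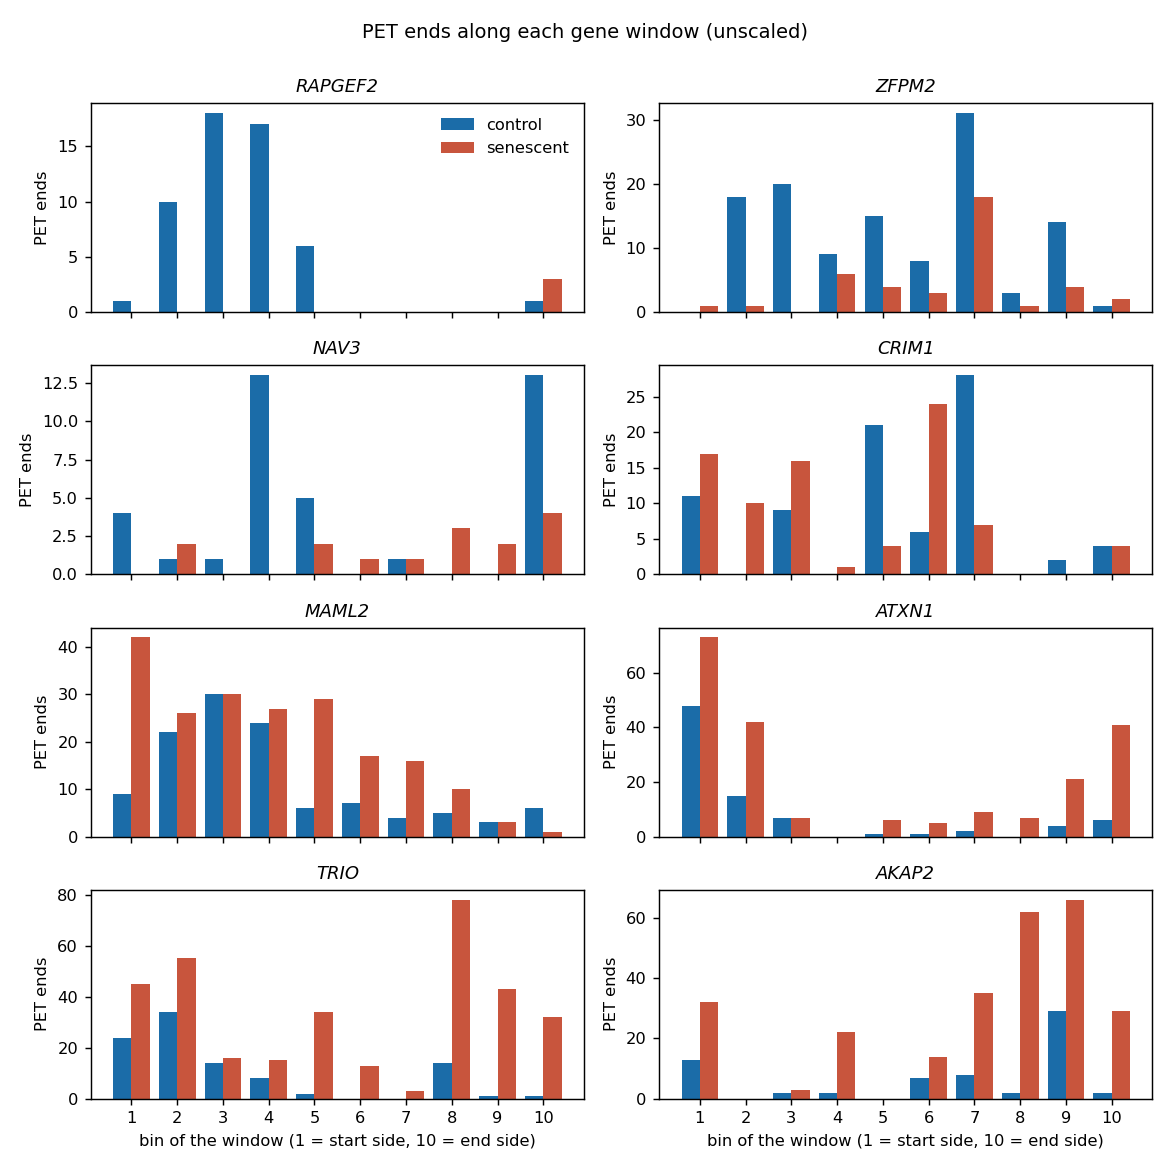
PET ends in 10 equal bins along each gene window, from the start side (bin 1) to the end side (bin 10), without scaling, for the control (blue) and senescent (red) libraries. RAPGEF2 has control PET ends in bins 2 to 5 and no senescent ones there, and TRIO has 14 control and 78 senescent PET ends in bin 8.

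The start sides of ATXN1, MAML2 and TRIO are shown as sequence because the contacts at the start of these genes are described above. The assay cuts chromatin with MboI, which cleaves at GATC, and can join ends only at such sites. The sequences are RefSeq promoters of GRCh38.p14, from 250 bases before to 50 after a gene start, written 5′ to 3′ on the strand of the gene with GATC in capitals. Their positions are on another build than the anchors and were not matched to them. ATXN1 is at chr6:16761411-16761710 on the minus strand (the outer of 2 entries), MAML2 at chr11:96343146-96343445 on the minus strand and TRIO at chr5:14143092-14143391 on the plus strand.
ATXN1: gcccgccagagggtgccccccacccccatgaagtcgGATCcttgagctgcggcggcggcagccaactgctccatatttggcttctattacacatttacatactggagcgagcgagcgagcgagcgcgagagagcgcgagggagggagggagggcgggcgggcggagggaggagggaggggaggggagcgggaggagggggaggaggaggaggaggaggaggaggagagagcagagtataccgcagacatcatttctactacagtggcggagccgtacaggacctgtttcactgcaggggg
MAML2: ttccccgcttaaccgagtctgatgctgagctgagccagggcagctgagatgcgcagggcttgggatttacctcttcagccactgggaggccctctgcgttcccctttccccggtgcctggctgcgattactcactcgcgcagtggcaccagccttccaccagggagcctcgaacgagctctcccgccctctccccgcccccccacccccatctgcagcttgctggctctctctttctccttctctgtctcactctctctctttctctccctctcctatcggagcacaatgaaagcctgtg
TRIO: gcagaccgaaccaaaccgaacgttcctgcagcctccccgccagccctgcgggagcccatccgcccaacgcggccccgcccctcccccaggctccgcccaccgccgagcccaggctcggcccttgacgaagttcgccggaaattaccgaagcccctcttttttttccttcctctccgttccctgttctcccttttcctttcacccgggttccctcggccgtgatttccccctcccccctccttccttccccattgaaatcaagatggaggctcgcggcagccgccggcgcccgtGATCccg
The ATXN1 and TRIO sequences hold 1 GATC each and the MAML2 sequence none. GATC reads the same on both strands. It was found in 41.7% of the 35116 promoters of the table and in 4 of the 12 entries of the 6 genes with an entry, with CRIM1 and ZFPM2 having none. The number of CG pairs was 20 in the ATXN1, 13 in the MAML2 and 28 in the TRIO sequence, against a median of 14 over all promoters.

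The 3 genes with more control than senescent PETs also had the lowest shares of control anchors matched in the senescent library. The share of control anchors overlapping a senescent anchor was 1 of 7 at RAPGEF2, 2 of 10 at NAV3 and 12 of 29 at ZFPM2. It was 10 of 14 at CRIM1, 13 of 16 at TRIO, 22 of 24 at MAML2, 16 of 17 at AKAP2 and 18 of 19 at ATXN1. Both measures come from the same tables, since a site with no senescent PET cannot be listed there. Over all 8 genes 94 of 136 control anchors (69.1%, 60.6 to 76.8%) overlapped a senescent anchor, against 69.8% of all control anchors. In the other direction a control anchor lay over 88 of 158 senescent anchors (55.7%, 47.6 to 63.6%) at the genes and over 11.04% of those in the whole table, and the choice of genes rich in control sites bears directly on that share. A senescent contact joining overlapping anchors was found for 54 of 291 control contacts at the genes (18.6%, 14.3 to 23.5%) and for 16.6% of all control contacts (15.9 to 17.3%), so the share at the genes was near that of the whole library. Among the genes it ranged from 0 of 15 at RAPGEF2 and 0 of 22 at NAV3 to 12 of 36 (33.3%) at ATXN1.

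Contact spans at the genes were near those of each whole library. The median span was 97.2 kb (75.5 to 118 kb) at the 8 genes in the control library, against 85.4 kb (81.7 to 88.7 kb) for all its contacts. In the senescent library it was 112 kb (96.3 to 136 kb), against 97.1 kb (95.9 to 98.2 kb). In both libraries the interval of the genes held the value of the whole library. Repeated contacts, with at least 2 PETs, made up 18.6% of control contacts at the genes (14.3 to 23.5%) and 13.3% of all control contacts (12.7 to 13.9%). The shares in the senescent library were 15.0% (12.1 to 18.2%) and 14.4% (14.2 to 14.5%). At RAPGEF2, NAV3 and ZFPM2 no senescent contact had more than 1 PET, while 5 of 15, 3 of 22 and 9 of 58 control contacts did. These genes had only 3, 12 and 26 senescent contacts, so few repeated ones could be listed. The choice of genes by contact numbers also bears on the shares of repeated contacts, and nothing is read from them. Contacts with both anchors in the gene held 71.2% of control PETs (66.4 to 75.7%) and 63.1% of senescent PETs (59.4 to 66.7%), and these intervals overlap. Their share was lower in the senescent library at 7 of the 8 genes, MAML2 being the exception, and the intervals were apart at ATXN1 alone. This share was also lower in the senescent library at DST, ITGA1 with ITGA2 and MIR100HG, the regions compared below. No such share was computed over all windows. The anchors at the genes had a median width of 2954 bp in the control and 3251 bp in the senescent library, against 2708 and 2927 bp over all anchors.

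Relatives of the 8 genes had fewer control PETs, but the 8 genes were picked on this number and the relatives were not. The choice alone can give such a difference, the widths of the windows were not matched, and nothing is read from it. For 14 paralogs or related regulators (ATXN1L, KALRN, RAPGEF1, RAPGEF6, NAV1, NAV2, ZFPM1, MAML1, MAML3, PALMD, CHRD, CHRDL1, KCP and BMPER) approximate hg19 windows were written from general knowledge and not from an annotation. They held 44 control and 800 senescent PETs in all, a ratio of 0.705 per deposited PET (0.508 to 0.955). The median ratio of the 4156 autosomal windows was 0.430, but 1512 of these had no control PET. That median of single windows is another measure than a ratio of summed PETs. For summed PETs the scaling sets the ratio of the whole tables to 1. None of the 14 relatives reached a 4-fold ratio, against 13.3% of these windows. The windows were 380 kb wide and had at least 10 PETs, and the relatives were held to neither limit. ATXN1L (0 control and 6 senescent PETs), PALMD and CHRDL1 fell below 10 PETs, and CHRDL1 has no ratio. NAV1, a relative of NAV3, had the most, with 14 control and 195 senescent PETs, followed by RAPGEF1 with 8 and 102 and MAML3 with 6 and 127. Ratios well above 1 rested on few PETs, with 3.66 at PALMD (2 and 7 PETs) and 2.23 at RAPGEF6 (4 and 23 PETs), and both intervals held 1. KALRN, the closest relative of TRIO, had 5 and 56. No control PET was listed at 6 of the 14, and CHRDL1 had none in either library. For comparison, 3 further regions dense in control PETs were counted in approximate windows of the same kind. DST, the gene of the cytoskeletal linker dystonin, had 135 control and 79 senescent PETs, the neighbouring integrin genes ITGA1 and ITGA2 had 94 and 95, and MIR100HG, the host gene of a microRNA cluster, had 84 and 128. Both anchors lay in the region for 88.1%, 85.1% and 84.5% of their control PETs, and for 72.2%, 73.7% and 55.5% of their senescent PETs. At the 8 genes the control share ran from 46.2% (NAV3) to 82.8% (RAPGEF2). These shares depend on the width of the window and the differences were not tested.

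In 380-kb windows laid along the autosomes, not fitted to genes, those on the 8 genes did not have the highest ratios. These windows differ from the gene windows, and in its own 110-kb window RAPGEF2 had a ratio of 124 (29 and 3 PETs). Among the 195 windows with at least 20 control PETs, the highest ratios were 56.3 at chr2:189620001-190000000 (101 control and 23 senescent PETs) and 51.3 at chr7:83600001-83980000 (20 and 5). They were followed by chr6:113240001-113620000 (22 and 6), chr3:190760001-191140000 (27 and 8) and chr7:79040001-79420000 (22 and 7). The window on ZFPM2 ranked 6th, that on RAPGEF2 10th (32 and 16 PETs, a ratio of 25.6), that on NAV3 14th and that on CRIM1 30th. The windows on MAML2, ATXN1, TRIO and AKAP2 ranked from 72nd to 173rd.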

How the data were processed

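METTL3 HiChIP was measured in 1 control and 1 senescent library of IMR90 cells. The submitters' processing notes name hg19 as build and HiC-Pro 3.1.0 as a tool. How contacts were called, where anchors came from and whether duplicate pairs were removed is not given in the sources used here. Neither deposited table has a header. Their 7th column was taken as the authors' raw count of PETs per contact, since it held whole numbers from 1 upwards, and their 8th, at most 0.564, as a deposited p-value or q-value (which of them is not stated), used only to filter and to break ties. Only pairs with at least 1 PET were listed, so totals are not sequencing depths and an unlisted pair gives no upper limit. Starts were read as counted from 0, since 147 anchor ends equalled an anchor start and 0 lay 1 base below one, and are printed counted from 1.

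Contacts were counted with Python 3.11.15, pandas 2.3.3 and numpy 2.4.6, and intervals were computed with scipy 1.17.1: exact Poisson for counts, exact conditional binomial for ratios, exact Clopper-Pearson for shares and binomial order-statistic for medians. PETs that are copies of 1 molecule would make them too narrow. Ratios were scaled to the PETs deposited per library, and windows with no senescent PETs were set to a floor of 3. Anchors overlapping by at least 1 bp were taken as shared. Anchor midpoints were assigned to bins; the direction of transcription came from the RefSeq promoter table, or from general knowledge for CRIM1 and ZFPM2. The ratio and its interval were tested on simulated counts, and the overlap rule on a small made-up set of anchors. The counting of PETs per window was not tested in this way. All 8 genes are named, each with its strongest contact and busiest anchors per library, and beyond them the 5 windows with the highest ratio among those with at least 20 control PETs. Without an hg19 annotation, gene names were not assigned to other sites. The genes and lists were chosen with earlier results of these data known. The alternatives were other overlap rules, widths, scalings, PET minimums, spans and a deposited value of at most 0.05.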

Additional observations from a re-analysis of the deposited data

How the results depend on the processing

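No paired analysis was possible because each group had 1 library. The ratio of control to senescent PETs over all 8 genes, 6.94 when scaled to deposited PETs (6.11 to 7.87), was 0.542 without scaling, so its direction is set by the scaling. It was 5.57 when scaled to the PETs of the same chromosome and 9.58 over contacts with at least 2 PETs. Without scaling the ratio turned for CRIM1 (0.962), ATXN1 (0.338), TRIO (0.277), MAML2 (0.579) and AKAP2 (0.237). The 7 other alternatives left it above 1 for all 8 genes, from 2.36 for ATXN1 scaled by chromosome to 103 for ZFPM2 over contacts with at least 2 PETs, where no senescent PET was left, so that the value is set by a floor of 3 PETs (the exact interval starts at 76.4). The share of windows past 4-fold was 11.2% with at least 20 PETs, and 5.56% were past 8-fold. Median spans at the genes were 20.1 kb (control) and 27.2 kb (senescent) with at least 2 PETs, and 43.9 and 45.9 kb with both anchors in the gene. With anchors within 5 kb counted as shared, the shares were 78.7% of control and 69.0% of senescent anchors. Counts of 3 to 26 PETs at RAPGEF2, NAV3 and ZFPM2 in the senescent library give the wide intervals there.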
